A study of Homo sapiens with 12 samples.

Results

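Genes for subunits of the proteasome, the protease complex that degrades ubiquitin-tagged proteins, were followed on 12 one-colour 44 k arrays of a human lung adenocarcinoma line. Members were the gene probes whose RefSeq accession belongs, by the human RefSeq gene table, to a symbol made of PSMA to PSMF and a digit. The rule found 45 genes with 63 probes among the 16554 genes that could be named on the array. Of these, 43 encode subunits, assembly chaperones, activators or an inhibitor of the proteasome, with 60 probes. The other 2, PSMC3IP and PSME3IP1, are named for a partner that they bind and are no subunits, and their 3 probes are given apart. One further subunit gene, PSMB11 of the thymus, has no probe here.

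All arrays held RNA of 1 clone, H358/Tet-On/SRSF2, which carries the splicing factor SRSF2 behind a promoter that doxycycline switches on. In 6 arrays, labelled SRSF2 over-expression, the cells had been given 1 µg/mL doxycycline for 24 hours. The other 6, labelled control, were taken at the same 24 hours and carry the treatment label none, so an effect of the drug and an effect of the transgene cannot be told apart. Each of 3 slides held 2 arrays of either condition, and the study hybridised 2 arrays from each of 3 labelling reactions per condition, so that p-values measure the spread between arrays, which is partly technical.

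The 20S core of the proteasome is a barrel of 2 outer alpha rings and 2 inner beta rings. PSMB5, PSMB6 and PSMB7 carry its proteolytic sites in most tissues, and PSMB8, PSMB9 and PSMB10 take their places in the immunoproteasome, which interferon induces and which shapes peptides for antigen presentation. The 19S particle caps the barrel with a ring of 6 ATPases that unfold the substrate and a lid that removes its ubiquitin. Other caps (PSME1 to PSME4) open the barrel without ubiquitin, and PSMF1 was described as an inhibitor. When proteasome activity falls short, the transcription factor NFE2L1 is known to raise many of these genes together.

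Between 54.2% and 68.0% of the spots were well above background on an array, and no gene spot was saturated. The probe of the targeted gene went against the labels. The SRSF2 probe, A_23_P77776, read 3.74, 3.96 and 4.03 (lowest, median and highest log2 signal after subtraction of the array's 75th percentile) in the control arrays. It read 2.29, 2.51 and 2.56 in the arrays labelled SRSF2 over-expression, all below every control array, with a log2 fold change of -1.46 ± 0.06 (SE; limma, adjusted p = 1.68e-09). Directions below are therefore those of the labels, and the transgene itself was not shown by these arrays. The paper, however, reports raised SRSF2 mRNA in the induced clone by quantitative RT-PCR, and it examined the protein by western blotting. Whether the array probe reads RNA of the transgene was not tested, so its fall does not show that induction failed or that labels were exchanged. Control replicate 2 stood apart, with the lowest 75th percentile of signal (893 against 1058 to 1233 in the other control arrays) and the largest SD of its log2 values from the median of its condition (0.33 against 0.16 to 0.31). Calls that change without it are given both ways. Of 8 epithelial markers 7 were well above background on all arrays, and SFTPB, of the alveolar type that lung adenocarcinoma can resemble, was not. All 3 fibroblast markers with a probe and PTPRC, which defines leukocytes, were above background on 0 arrays, while CD68 and PECAM1 were above it on all 12, and their part in the results was not tested. In bulk RNA a change in the number of cells and a change in RNA per cell cannot be told apart.

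Proteasome subunit genes were expressed throughout and changed little. Testing required a signal well above background in 5 or more of a condition's 6 arrays. Of the 60 subunit probes, 58 (42 genes) met this, and all 58 were above background on every array. The testis subunit PSMA8 was above background on 0 arrays, and A_24_P116017, the second probe of PSMD9, on 1 control array and 3 of the others. A probe was called at an adjusted p of at most 0.05, the adjustment running over all 24331 probes tested. Of the 58 subunit probes, 24 were called higher in the arrays labelled SRSF2 over-expression (41.4%), beside 29.7% of all probes tested. Another 11 of the 58 were called lower, beside 28.0% of all probes, and 23 were not called. Without slide 2 the lower calls numbered 7, beside 29.0% of all probes. Without control replicate 2 they numbered 15, beside 28.6% of all probes, the 4 added being both probes of PSMD3 and those of PSMB10 and PSME4. By gene, 17 were called higher, 9 lower, 15 were not called, and PSME3 had probes called both ways. No share over all genes stands beside these gene counts.

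None of the 58 probes was deregulated at the study's threshold, an adjusted p of at most 0.05 with a change of at least 2-fold, which 7.00% of all probes reached. The count was also 0 at an unadjusted p under 0.05 with limma, and the methods' t-test gave 0 as well. The largest change called was 1.59-fold, and 3 probes passed 1.5-fold. The 95% intervals of all 58 probes lay within 2-fold either way, from -0.86 to 0.77 on the log2 scale, and 52 lay within 1.5-fold. With the arrays scaled on spike-in controls 52 of the 58 intervals lay within 2-fold, and with normexp background correction 53. The median log2 fold change of the subunit probes was 0.05 and that of all probes 0.01. The quartiles of the subunit probes were -0.16 and 0.25, and those of all probes -0.30 and 0.31. Subunit probes also varied less between arrays of a condition, with a median SD of 0.08 in control and 0.11 in the other arrays against 0.13 and 0.16 over all probes.

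The scale of the arrays moved these counts. Spike-in scaling raised the median over all 24331 probes by 0.21 and the share of calls that were higher from 51.5% to 76.8%. Under it 6 subunit probes were called higher (10.3%, beside 20.8% of all probes) and 0 lower (6.3% of all probes), so that the subunit share of higher calls lay below that of all probes and not above it. All 24 of the higher calls kept their sign, and 9 of the 11 lower calls did. The 2 that turned were probes of PSMA6 and PSMC1, at 0.02 and 0.01. The subunit median minus that of all probes was 0.03 with either scaling. Normexp correction moved the median over all probes by -0.11 and left 3 subunit probes called higher (5.2%, beside 5.8%) and 0 lower (5.8% of all probes), with the sign of every call kept and the subunit median at 0.31 above that of all probes. Averaging the 2 arrays of a condition on each slide, which leaves 3 values against 3, gave 9 probes called higher (15.5%, beside 19.8% of all probes) and 3 lower (5.2%, beside 19.2%). With the replicate number as a block, 24 were called higher (beside 34.1% of all probes) and 17 lower (29.3%, beside 31.7%). The 6 lower calls that this added, on probes of PSMA6, PSMA7, PSMC1, PSMD13, PSME2 and PSME4, were absent when paired arrays were averaged first and slide was the block. That setting gave 17 higher (29.3%, beside 28.3% of all probes) and 8 lower (13.8%, beside 26.4%).

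**Figure D1:**
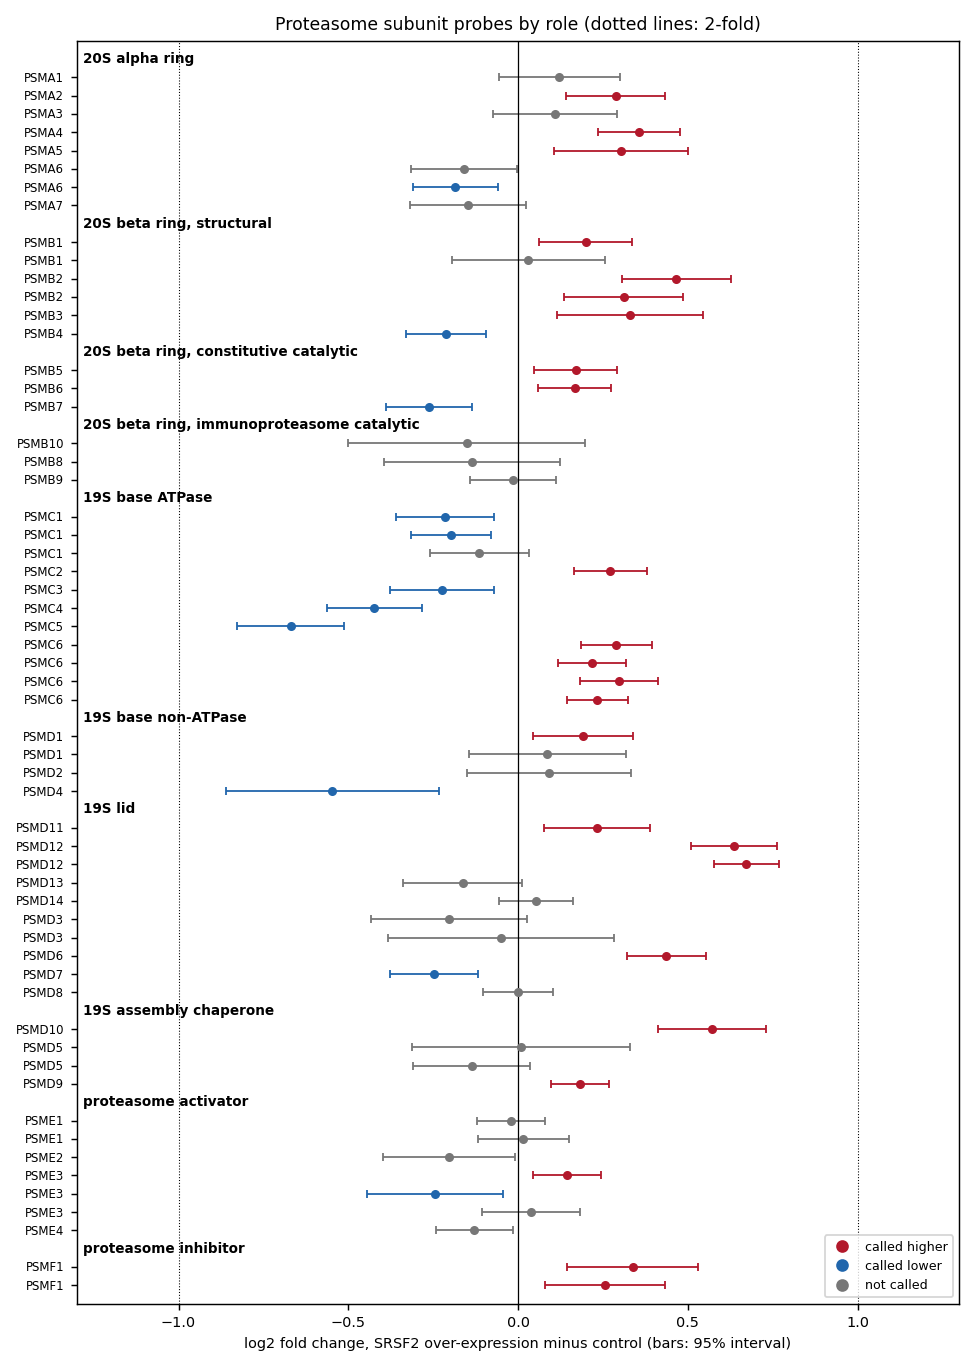
Log2 fold change (x axis, arrays labelled SRSF2 over-expression minus control) of the 58 subunit probes tested, 1 row per probe, grouped by role, with 95% intervals as bars. Points are coloured by the call at an adjusted p of at most 0.05 (24 higher, 11 lower, 23 not called, with the lower calls of PSMA6 A_32_P43217 and PSMC1 A_32_P57870 just above 0 under spike-in scaling), and no interval reaches the dotted lines at 2-fold.

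Groups that did not overlap were counted next. In 16 of the 58 subunit probes all 6 arrays labelled SRSF2 over-expression lay above all control arrays, against 21.2% of all probes. In 4 they lay below, against 18.9%. All 35 called subunit probes differed in the same direction on the 3 slides, as did 98.9% of all called probes. Among the 12 genes with several probes tested, all probes had the same sign in 9, and the probes of a gene differed by a median of 0.10 in log2 fold change. The exceptions were PSMD5, PSME1 and PSME3. RefSeq lists 51 pseudogenes for 20 of the 43 genes, 13 of them for PSMC1, and whether a probe also reads such a copy was not tested.

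**Figure D2:**
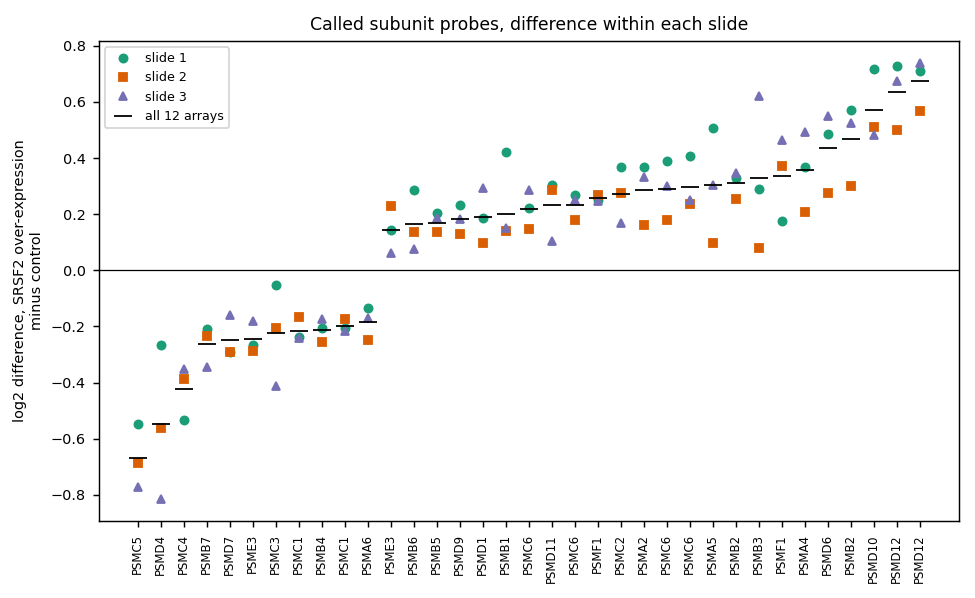
Difference between conditions (y axis, log2) within each of the 3 slides for the 35 called subunit probes, ordered by the difference over all 12 arrays (black bar). Every slide lies on the same side of 0 for each probe.

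Promoter windows of 5 members are printed. PSMD12 was the largest rise, PSMC5 was the largest fall, PSMD6 was a further rise, and PSMB9 and PSME2 belong to the interferon-induced forms. PSMD10 (0.57) and PSMB2 (0.47) lay above PSMD6 (0.44) in log2 fold change. Their windows are not printed and held no match to CCGGAAG, which both PSMD12 and PSMD6 hold. Each window is the 250 bases before the start site, 5′ to 3′ on the gene's strand, from RefSeq (GRCh38.p14). Capitals mark the matches, on either strand, to 4 motifs that were searched and that overlap in none of the 5 windows: TGACNNNGC, the core that NFE2L1 and NFE2L2 bind; CCGGAAG of the ETS family; CCAAT; and a core of interferon response elements, GAAA repeated after any 2 bases. For PSMC5 the first of 2 windows is shown, and its TGACNNNGC match lies in the other.
PSMD12, chr17:67366578-67366827, minus strand: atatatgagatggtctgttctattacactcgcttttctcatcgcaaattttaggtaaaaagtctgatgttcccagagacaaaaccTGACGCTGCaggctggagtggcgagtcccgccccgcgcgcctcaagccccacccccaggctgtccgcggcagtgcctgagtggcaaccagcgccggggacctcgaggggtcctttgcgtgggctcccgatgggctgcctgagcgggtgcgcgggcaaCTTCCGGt
PSMD6, chr3:64023495-64023744, minus strand: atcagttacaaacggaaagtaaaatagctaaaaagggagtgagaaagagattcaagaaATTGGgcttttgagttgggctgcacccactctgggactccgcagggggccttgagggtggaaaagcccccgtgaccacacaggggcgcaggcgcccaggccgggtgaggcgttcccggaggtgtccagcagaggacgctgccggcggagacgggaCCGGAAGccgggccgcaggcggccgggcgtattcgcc
PSMC5, chr17:63827181-63827430, plus strand: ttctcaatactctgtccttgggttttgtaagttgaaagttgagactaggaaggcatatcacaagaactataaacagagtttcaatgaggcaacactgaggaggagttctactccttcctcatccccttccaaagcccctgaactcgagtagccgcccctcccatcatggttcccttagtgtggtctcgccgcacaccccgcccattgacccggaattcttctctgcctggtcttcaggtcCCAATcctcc
PSMB9, chr6:32853942-32854191, plus strand: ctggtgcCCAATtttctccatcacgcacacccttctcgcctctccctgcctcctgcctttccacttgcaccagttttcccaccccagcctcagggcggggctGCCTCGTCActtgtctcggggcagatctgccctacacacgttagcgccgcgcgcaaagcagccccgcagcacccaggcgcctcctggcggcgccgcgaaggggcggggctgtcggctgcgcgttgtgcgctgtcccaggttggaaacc
PSME2, chr14:24146611-24146860, minus strand: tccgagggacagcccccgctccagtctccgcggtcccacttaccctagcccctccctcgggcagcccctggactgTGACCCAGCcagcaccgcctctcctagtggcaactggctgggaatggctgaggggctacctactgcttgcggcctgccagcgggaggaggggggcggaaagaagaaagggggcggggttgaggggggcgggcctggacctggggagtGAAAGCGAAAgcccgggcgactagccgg

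Of the 43 genes with a probe, 38 had such a window, 46 windows in all. TGACNNNGC was found in 23.9% of these 46 windows and in 10.9% of all 35116 promoter windows, which cover genes of every kind. The 11 genes that held it include 4 called higher, 1 called lower and 6 not called. Among all 42 subunit genes tested, 17 were called higher, 9 lower and 15 not. CCGGAAG stood in 21.7% of the subunit windows and 8.52% of all windows. The 10 genes that held it were PSMD6, PSMD9, PSMD12, PSMC2, PSMC6 and PSMF1, all called higher, with PSMD8, PSMD13 and PSME4, not called, and PSMA8, not tested. CCAAT stood in 37.0% of the subunit windows against 32.0%, and the interferon response core in 8.70% against 3.02%, in PSMB4, PSMB10, PSMA4 and PSME2. These are matches of letters and not binding sites.

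The lid of the 19S particle held the largest rise. PSMD12, a scaffold subunit of the lid, has 2 probes. A_32_P12639 read 2.95, 2.98 and 3.05 (lowest, median and highest) in control and 3.58, 3.67 and 3.75 in the arrays labelled SRSF2 over-expression, and had a log2 fold change of 0.67 ± 0.04 (adjusted p = 5.51e-08). Its other probe, A_23_P77876, went from 2.84, 2.87 and 2.90 to 3.32, 3.56 and 3.62, a log2 fold change of 0.63 ± 0.06 (adjusted p = 1.21e-06). On both probes the conditions were far apart, and both were called under every alternative run, with log2 fold changes from 0.59 to 0.88.

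PSMD6, also of the lid, read 3.31, 3.41 and 3.49 in control and 3.71, 3.86 and 3.95 in the other arrays, a log2 fold change of 0.44 ± 0.05 (adjusted p = 1.58e-05). No array of one condition reached the range of the other. With normexp PSMD6 was at 0.56 and not called (adjusted p = 0.0915). PSMD11, likewise of the lid, was called higher at 0.23, and PSMD7, the inactive partner of the lid's deubiquitinase, was called lower at -0.25. The deubiquitinase itself, PSMD14, was at 0.05 and not called, with a 95% interval from -0.06 to 0.16. PSMD3, a scaffold subunit, stood at -0.20 and -0.05 on its 2 probes and was not called. On the second, A_24_P289726, control replicate 2 read 1.74 and the other control arrays 2.71 to 2.74. Without that array both probes were called lower, at -0.28 (adjusted p = 0.0184) and -0.21 (adjusted p = 0.00124), and on the second all arrays labelled SRSF2 over-expression were then below the control arrays. PSMD13 (-0.16) and PSMD8 (95% interval from -0.10 to 0.10) were not called either. Of 8 lid genes, 3 were thus called higher, 1 lower and 4 not. By probe, 40% were called higher and 10% lower, beside 29.7% and 28.0% of all probes.

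The ring of 6 ATPases in the base of the 19S particle split between the directions. PSMC2 and PSMC6 were called higher and PSMC1, PSMC3, PSMC4 and PSMC5 lower, no call of the 6 genes in either direction held with spike-in scaling or normexp, and 1 of the 2 called probes of PSMC1 turned to 0.01 with spike-in scaling. Of the ring's 11 probes, 5 were called higher and 5 lower (45.5% each, beside 29.7% and 28.0% of all probes). PSMC5, an ATPase of this ring, held the largest fall among the subunit probes. Its probe A_23_P164035 read 2.38, 2.41 and 2.58 in control and 1.58, 1.74 and 1.96 in the arrays labelled SRSF2 over-expression. Its log2 fold change was -0.67 ± 0.07 (adjusted p = 5.24e-06). The conditions did not overlap, and within the slides the difference was -0.55, -0.69 and -0.77. Under spike-in scaling it kept its direction at -0.46 with an adjusted p of 0.0953, and under normexp correction at -0.43 with an adjusted p of 0.204.

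PSMC4, which pairs with PSMD10 during assembly, read 2.78, 2.83 and 2.92 in control and 2.20, 2.48 and 2.56 in the other arrays. All 6 of the latter were below the control arrays, and the log2 fold change was -0.42 ± 0.06 (adjusted p = 9.56e-05). PSMC3 was called lower at -0.22, with overlap between the conditions. Of the 3 probes of PSMC1, 2 were called lower (-0.21 and -0.20) and A_32_P9700 was at -0.11 and not called. On the other side, PSMC2 was called higher at 0.27. All 4 probes of PSMC6 were called higher, between 0.22 and 0.30, each with the conditions apart. With spike-in scaling, where none was called, PSMC6 and PSMC2 lay at 0.42 to 0.50 and PSMC3, PSMC4 and PSMC5 at -0.46 to -0.02, while PSMC1 lay between -0.01 and 0.09.

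Beside the ATPases the base carries PSMD1 and PSMD2, its largest subunits, and PSMD4, a ubiquitin receptor. PSMD4 read 3.50, 4.24 and 4.39 in control and 3.37, 3.59 and 3.85 in the arrays labelled SRSF2 over-expression. The conditions overlapped through control replicate 2, the lowest control value at 3.50 where the others started at 4.18. The log2 fold change was -0.55 ± 0.14 (adjusted p = 0.00564), and without that array it was -0.68 (adjusted p = 5.27e-05). The call was lost without slide 3 (-0.41, adjusted p = 0.122), without background subtraction (adjusted p = 0.0958), with spike-in scaling (-0.34, adjusted p = 0.3) and with normexp (-0.30, adjusted p = 0.627). On the slides it was -0.26, -0.56 and -0.82. PSMD1 was called higher on 1 probe (0.19), with the other at 0.09, and PSMD2 at 0.09 was not called.

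Assembly chaperones of the base also differed from each other. PSMD10, known as gankyrin and found raised in liver cancers, read 1.09, 1.18 and 1.22 in control and 1.57, 1.69 and 1.98 in the arrays labelled SRSF2 over-expression. These did not overlap, and the log2 fold change was 0.57 ± 0.07 (adjusted p = 2.32e-05). It fell into the 3 subunit probes called higher under normexp correction too, together with both probes of PSMD12. PSMD9 was called higher at 0.18 on its tested probe, the smallest standard error of all subunit probes (0.04). PSMD5 was not called on either probe (-0.14 and 0.01).

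**Figure D3:**
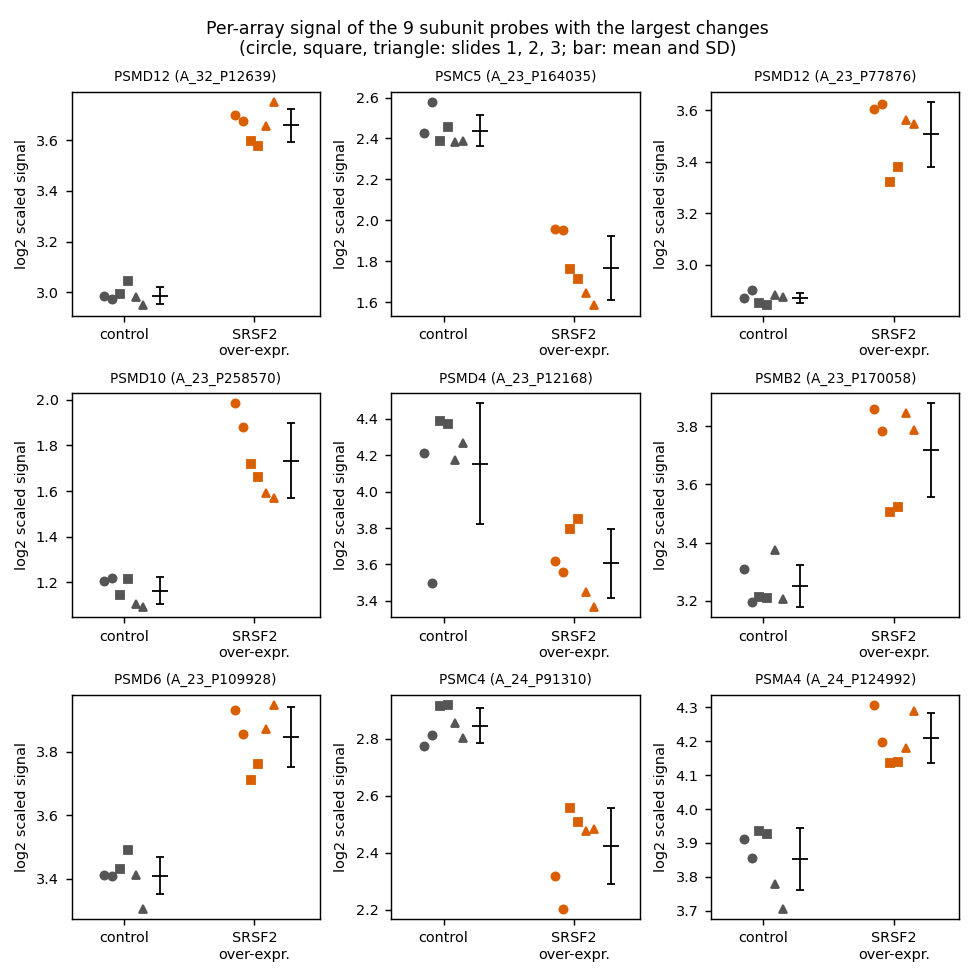
Log2 signal minus the array's 75th percentile (y axis) of the 9 subunit probes with the largest changes, 1 point per array, with circles, squares and triangles for slides 1, 2 and 3 and a bar for the mean and SD of 6 arrays. The conditions are apart in 8 panels, and in PSMD4 control replicate 2 lies within the range of the arrays labelled SRSF2 over-expression.

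In the 20S core 9 of 20 probes tested were called higher and 3 lower (29.7% and 28.0% of all probes). PSMB2, a structural subunit of the beta ring, led it. Its probe A_23_P170058 read 3.19, 3.21 and 3.37 in control and 3.51, 3.79 and 3.86 in the others, a log2 fold change of 0.47 ± 0.07 (adjusted p = 0.000133). The conditions were apart on this probe, which was not called with normexp (0.52, adjusted p = 0.118). On the second, A_24_P284893, they overlapped and the change was 0.31 (adjusted p = 0.00516). PSMB3 was called higher at 0.33 and PSMB4 lower at -0.21. Of the 2 probes of PSMB1, A_23_P156531 was called higher at 0.20, without control replicate 1, whose spot was an outlier, and A_24_P233570 was at 0.03.

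PSMA4, of the alpha ring, read 3.71, 3.88 and 3.94 in control and 4.14, 4.19 and 4.31 in the arrays labelled SRSF2 over-expression. The ranges did not meet, and the log2 fold change was 0.36 ± 0.06 (adjusted p = 0.00012). With normexp it was 0.57 and not called (adjusted p = 0.151). PSMA2 and PSMA5 were called higher at 0.29 and 0.30, again with no overlap. For PSMA5 control replicate 2 read 4.36 and the other control arrays 4.82 to 4.93. Without that array the log2 fold change of PSMA5 was 0.22 and still called (adjusted p = 0.00442). PSMA6 was called lower on 1 probe (-0.18), and its other probe stood at -0.16, without 1 array of either condition. PSMA1, PSMA3 and PSMA7 were not called, at 0.12, 0.11 and -0.15.

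The constitutive catalytic subunits were called in both directions, by small amounts. With the 2 arrays of a slide averaged none of them was called (adjusted p = 0.153 for PSMB5, 0.182 for PSMB6 and 0.0702 for PSMB7). With slide as a block on averaged arrays, PSMB7 was called (adjusted p = 0.0253) and PSMB5 and PSMB6 were not. PSMB5, of the chymotrypsin-like site and the main target of bortezomib, read 5.46, 5.50 and 5.60 in 5 control arrays and 5.58, 5.71 and 5.75 in 5 of the other arrays. Control replicate 1 and SRSF2 over-expression replicate 2 were left out as outlier spots, and the ranges overlapped slightly. Its log2 fold change was 0.17 ± 0.06 (adjusted p = 0.0218). PSMB6, of the caspase-like site, read 4.78, 4.85 and 4.91 in control and 4.88, 5.04 and 5.07 in the others, with 1 array in overlap. Its change was 0.17 ± 0.05 (adjusted p = 0.011). PSMB7, of the trypsin-like site, went the other way, from 5.04, 5.18 and 5.26 to 4.78, 4.88 and 4.99, with no overlap. Its change was -0.26 ± 0.06 (adjusted p = 0.0018), and -0.06 under spike-in scaling (adjusted p = 0.873). Neither rise was called with spike-in scaling (adjusted p = 0.377 for PSMB5 and 0.206 for PSMB6), with normexp or without slide 1, and that of PSMB5 was not called with its outlier spots kept (adjusted p = 0.224).

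None of the 3 immunoproteasome catalytic subunits was called. PSMB8, the counterpart of PSMB5, read 2.92, 3.31 and 3.50 in control and 2.90, 3.03 and 3.37 in the arrays labelled SRSF2 over-expression, ranges that overlapped. The difference was -0.14 ± 0.12 (adjusted p = 0.354), with a 95% interval from -0.40 to 0.12. PSMB9, the counterpart of PSMB6, read 2.11, 2.28 and 2.32 in control and 2.11, 2.24 and 2.38 in the others. Its difference was -0.02 ± 0.06 (adjusted p = 0.839), with an interval from -0.14 to 0.11. PSMB10, the counterpart of PSMB7, read 2.66, 3.58 and 3.63 in control and 2.93, 3.30 and 3.39 in the others. Its difference was -0.15 ± 0.16 (adjusted p = 0.446), with an interval from -0.50 to 0.20. The low value of 2.66 was control replicate 2, and without it the difference was -0.29 and called (adjusted p = 0.0322). In both conditions PSMB10 was lowest on slide 1, and on the slides the difference was 0.07, -0.25 and -0.28. The sign of all 3 turned with spike-in scaling and with normexp correction, to values from 0.02 to 0.19, with no call.

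**Figure D4:**
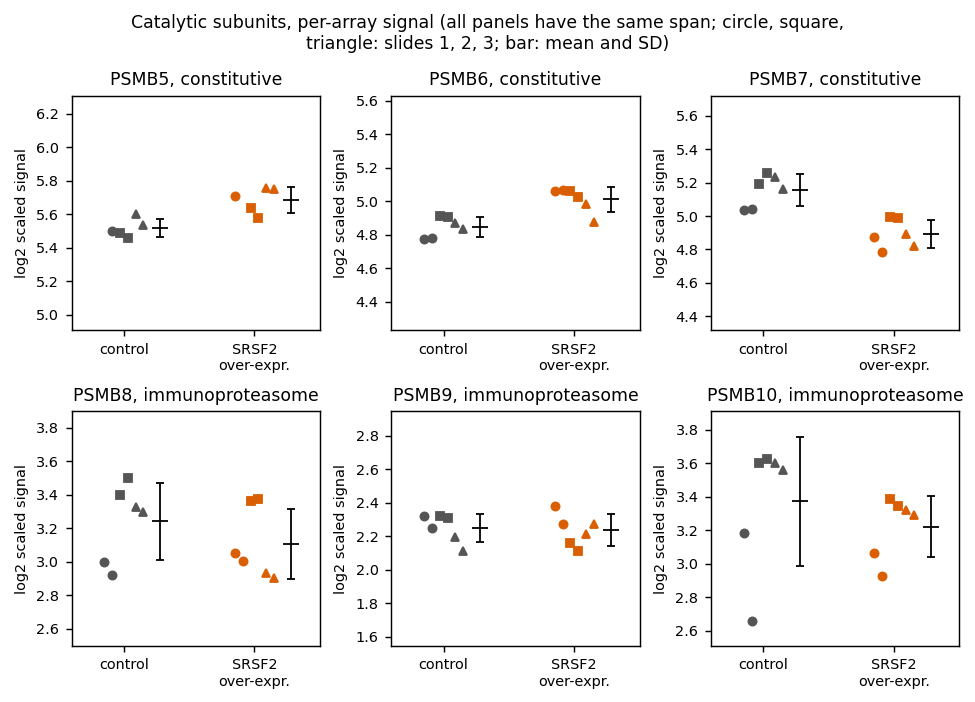
Log2 signal minus the array's 75th percentile (y axis; heights cannot be compared between panels, since each is another probe) of the constitutive catalytic subunits (top row) and the immunoproteasome subunits that replace them (bottom row), 1 point per array, shaped by slide, with mean and SD. PSMB5 and PSMB6 lie higher, with ranges that overlap slightly, and PSMB7 lies lower with no overlap, under SRSF2 over-expression as labelled. The ranges of PSMB8, PSMB9 and PSMB10 overlap as well.

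Each immunoproteasome subunit was set against the subunit that it replaces, as the log2 difference on each array, to ask whether the 2 changed unequally. The 3 pairs were compared by exact two-sided permutation tests with p-values adjusted over them. For PSMB8 minus PSMB5 the change was -0.33 ± 0.16 (5 arrays against 5; exact p = 0.0794, adjusted p = 0.119). Its mean was -2.23 ± 0.24 (SD) in control and -2.56 ± 0.30 in the other arrays. For PSMB9 minus PSMB6 the change was -0.18 ± 0.06 (exact p = 0.0195, adjusted p = 0.0584), from -2.59 ± 0.10 to -2.78 ± 0.12. On slides 1 and 2 it was -0.25 and -0.31, and on slide 3 it was 0.01. For PSMB10 minus PSMB7 the change was 0.11 ± 0.14 (exact p = 0.494, adjusted p = 0.494), and -0.01 without control replicate 2. No pair passed the threshold after adjustment. The smallest p that these tests can give is 0.00794 for the pair with 10 arrays and 0.00216 for the others. Under normexp correction PSMB8 minus PSMB5 passed it at -0.45 (adjusted p = 0.0238).

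Among the alternative caps, the interferon-induced pair PSME1 and PSME2 was not called. PSME1 read 6.11, 6.17 and 6.23 in control and 6.07, 6.13 and 6.27 in the arrays labelled SRSF2 over-expression on probe A_23_P151610. Its difference was -0.02 ± 0.05 (adjusted p = 0.732; 95% interval from -0.12 to 0.08). On A_23_P151614 it read 1.22, 1.34 and 1.41 against 1.25, 1.29 and 1.56, a difference of 0.02 ± 0.06 (adjusted p = 0.845). Both probes thus showed overlapping conditions. PSME2 read 6.69, 6.90 and 7.01 in 5 control arrays, control replicate 1 being left out as an outlier, and 6.46, 6.61 and 6.91 in the others, with overlap. Its difference was -0.20 ± 0.09 (adjusted p = 0.0694), and it was called with the replicate number as a block (adjusted p = 0.0211) but not with slide as a block on averaged arrays (adjusted p = 0.0673).

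PSME3, the nuclear activator that degrades some proteins without ubiquitin, had probes called in opposite directions. A_23_P164141 read 1.21, 1.23 and 1.26 in control and 1.28, 1.40 and 1.47 in the arrays labelled SRSF2 over-expression, with no overlap, and the log2 fold change was 0.15 ± 0.05 (adjusted p = 0.016). A_24_P344307 read 0.71, 1.02 and 1.08 in control and 0.47, 0.73 and 0.95 in the others, with overlap, and the log2 fold change was -0.25 ± 0.09 (adjusted p = 0.0377). A_24_P352864 stood at 0.04 and was not called. Neither call held with spike-in scaling (0.35 and -0.04), with normexp, or without slide 2 (adjusted p = 0.131 and 0.178). Which transcripts the 3 probes read was not tested here. PSME4, a cap linked to histone turnover, was at -0.13 and not called (adjusted p = 0.053), and was called at -0.16 without control replicate 2 (adjusted p = 0.00775).

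The inhibitor PSMF1 was called higher on both probes. A_23_P79911 read 0.75, 1.00 and 1.10 in control and 1.07, 1.38 and 1.48 in the arrays labelled SRSF2 over-expression. The ranges shared a narrow band, and the log2 fold change was 0.34 ± 0.09 (adjusted p = 0.00567). The second probe was at 0.26 (adjusted p = 0.0165). Without slide 3 the first was at 0.27 and not called (adjusted p = 0.0978). Neither probe was called with spike-in scaling (adjusted p = 0.0717 and 0.0908), with normexp (0.0716 and 0.273) or with averaged arrays (0.0676 and 0.136). The 2 genes that only share the name were called as well. PSMC3IP, a partner of the meiotic recombinases, read 0.33, 0.64 and 0.72 in control and 1.22, 1.32 and 1.66 in the others, without overlap, a log2 fold change of 0.78 ± 0.09 (adjusted p = 6.76e-06). Without control replicate 2, the 0.33, it was 0.72. PSME3IP1, which binds PSME3, read 0.33, 0.49 and 0.62 on A_23_P100441 in control and -0.23, -0.07 and 0.16 in the others, a log2 fold change of -0.53 ± 0.08 (adjusted p = 5.58e-05). Its conditions were apart on that probe. On A_24_P373333 it read -1.35, -1.17 and -1.05 against -1.08, -0.91 and -0.78, with overlap, and went the other way at 0.25 ± 0.07 (adjusted p = 0.0107). With spike-in scaling neither probe was called (-0.32, adjusted p = 0.312, and 0.45, adjusted p = 0.1), and the second was also lost with normexp (0.05), with averaged arrays and without slide 2.

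**Figure D5:**
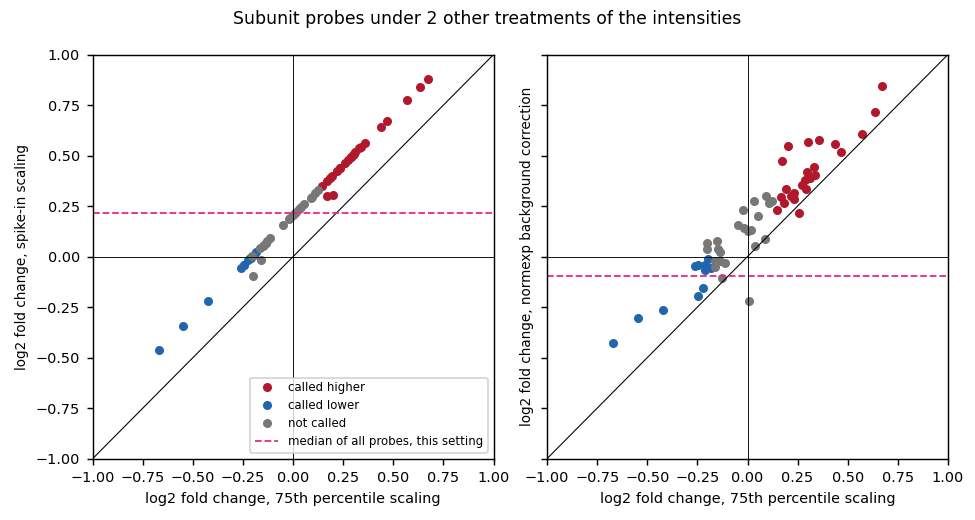
Log2 fold change of the 58 subunit probes under spike-in scaling (left) and normexp background correction (right), on the y axes, against that with 75th percentile scaling on the x axes, coloured by the call under the latter. The diagonal marks equal values and the dashed line the median of all probes under the y-axis setting (0.22 and -0.10), all 24 higher calls stay above 0 in both panels, and 2 of the 11 lower calls, of PSMA6 and PSMC1, lie above 0 with spike-in scaling.

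Other genes of the pathway were counted from 5 lists outside the naming rule, 39 genes of which had a probe. Of their 66 probes tested, 26 were called higher (39.4%, beside 29.7% of all probes) and 14 lower (21.2%, beside 28.0%), with a median of 0.08. Among further proteasome components and bound factors 4 of 9 probes were called higher (44.4%) and 2 lower (22.2%), beside the same shares of all probes. UBE3C, a ubiquitin ligase that sits on the proteasome, was the largest of these on A_24_P265135, from -2.31, -2.17 and -2.10 to -1.51, -1.29 and -1.13, with no overlap and a log2 fold change of 0.87 ± 0.08 (adjusted p = 9.17e-07). With normexp it was at 0.39 and not called (adjusted p = 0.334). Its other tested probe was at 0.09 and not called. TXNL1, a thioredoxin bound to the 19S particle, rose by 0.69 ± 0.08 (adjusted p = 9.67e-06), from 1.93, 2.04 and 2.13 to 2.58, 2.66 and 3.00. Its conditions were apart.

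All 6 probes of the other assembly chaperones, of the core particle and, for PAAF1, of the base, were called, 5 higher and 1 lower (29.7% and 28.0% of all probes). PSMG3 went from 2.47, 2.54 and 2.66 to 2.91, 2.98 and 3.25, a log2 fold change of 0.47 ± 0.07 (adjusted p = 6.92e-05). PSMG2 went from 1.56, 1.86 and 1.91 to 2.02, 2.25 and 2.36 on A_24_P399362, 0.38 ± 0.08 (adjusted p = 0.00109). Neither overlapped, and neither was called with normexp (adjusted p = 0.0698 and 0.114). In the list around NFE2L1, 4 of 9 probes were called higher (44.4%, beside 29.7% of all probes) and 2 lower (22.2%, beside 28.0%). NFE2L1 itself went from 2.78, 3.19 and 3.28 to 3.61, 3.89 and 4.01 on A_24_P219552, with no overlap, 0.69 ± 0.10 (adjusted p = 4.08e-05). Its other probe, A_23_P78302, was at 0.13 and not called (adjusted p = 0.239). MAFK, a small Maf protein that pairs with it, went from 0.52, 0.66 and 0.70 to 1.05, 1.11 and 1.16, again apart, 0.48 ± 0.05 (adjusted p = 2.7e-06).

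Of 30 probes of ubiquitin genes and delivery factors, 9 were called higher and 8 lower, 30.0% and 26.7% beside 29.7% and 28.0% of all probes. NPLOC4, which with VCP extracts tagged proteins, fell from 1.52, 1.60 and 1.70 to 0.29, 0.52 and 0.63, a log2 fold change of -1.14 ± 0.07 (adjusted p = 2.38e-08). The conditions were far apart. UBQLN1, a shuttle to the proteasome, had its largest change on A_24_P338121. That probe was well above background on 2 of the 6 control arrays and 5 of the others. It was thus tested only through the condition where it read higher, and its p-value is no support for a rise. The probe is counted among the 9 called higher here and the 26 over all lists. The conditions overlapped. On the processed signal, with dim values raised to the floor of the array, the ratio was 1.73-fold. With normexp its log2 fold change was 0.0063 (adjusted p = 0.996), so that ratio is not a lower bound of a rise. The ratio is the mean of the brighter condition over the mean, in the dimmer one, of the higher of the probe's signal and the lowest signal well above background on the array. Of its other 4 probes, 3 were called higher, at 0.47 to 0.71, and A_24_P329597 stood at -0.04. In the list of interferon inducers and antigen processing partners 4 of 12 probes were called higher (33.3%) and 1 lower (8.33%). The shares of all probes were 29.7% and 28.0%. NLRC5, the activator of class I antigen presentation genes, went from -2.37, -2.25 and -2.16 to -3.12, -2.72 and -2.59 on its 1 tested probe, -0.53 ± 0.08 (adjusted p = 0.000136), with no overlap. It was not called with spike-in scaling (-0.32, adjusted p = 0.262) or normexp (adjusted p = 0.383). TAP1, whose start site lies 488 bases from that of PSMB9 on the other strand, was at 0.22 and not called (adjusted p = 0.121).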

How the data were processed

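RNA of 6 control and 6 SRSF2 over-expression arrays was labelled with Cy3 from 500 ng. The authors deposited the Feature Extraction 10.7.3.1 output of each array, whose processed intensity is the spot's signal after background subtraction, and a table of log2 values that the authors scaled and centred by probe, used as an alternative. Log2 processed intensities were averaged over the spots of a probe, without outlier spots, and the 75th percentile of each array was subtracted. Of 41000 probes, 24331 were tested: those lacking a value in no more than 25% of arrays and exceeding background clearly in 5 or 6 arrays of either condition. Conditions were compared with limma 3.58.1 in R 4.3.3 without covariates, with Benjamini-Hochberg adjustment over all probes kept. The fit, tested on simulated data with 200 changed among 23740 probes, recovered 165 and called 5 others. The simulated arrays were drawn as independent and the changes were larger than most subunit changes. These figures therefore do not vouch for the subunit calls. Exact permutation tests ran over 924 arrangements, or 252 where 2 arrays lacked a value. Spike-in scaling used 6 control probes that were above background on all arrays, and normexp used an offset of 50 on spot medians and local backgrounds. Symbols came from RefSeq accessions through RefSeq's gene table (GRCh38.p14), giving a symbol to 23953 of the 25868 probes with an accession. The files' build differs, so no probe coordinates are given, and the promoter windows carry GRCh38.p14 coordinates.

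The labels give the conditions shared replicate numbers. Deviations from the condition means correlated between arrays of the same number (r from 0.28 to 0.64 over 6 pairs), as they did between different numbers on the same slide (0.33 to 0.65) but not between slides (-0.48 to -0.05), so the number was used as a block in an alternative. No 2 arrays were identical: their log2 differences had SDs of 0.14 to 0.51 within a condition.

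The members, the gene lists and the naming rule were chosen with earlier results of these data known. Named with full values are PSMB5 to PSMB10, PSME1, PSME2, the 12 member probes with the largest changes among those called, genes with probes called in opposite directions, and the 2 called genes with the largest change in each pathway list. Some items that these rules would name are not reported here. Alternatives were other scalings, background corrections and filters, blocks for slide or replicate number, averaged arrays, and slides left out. Leaving out control replicate 2, or the 2 arrays with the fewest spots above background, was chosen after seeing the data.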

Additional observations from a re-analysis of the deposited data

Results flagged for a closer look

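In 5 of the 71 groups of 6 arrays examined, 1 array lay farther from the rest than Dixon's 95% limit allows; chance gives about 1 group in 20. In all 5 it was control replicate 2, as the lowest value. PSMC3IP read 0.33 there against 0.61 to 0.72 in the other control arrays. PSMD4 read 3.50 against 4.18 to 4.39. PSMG2 (A_24_P399362) read 1.56 against 1.81 to 1.91, and NFE2L1 (A_24_P219552) read 2.78 against 3.13 to 3.28. The difference PSMB10 minus PSMB7 was -2.38 against -1.85 to -1.59. Without that array PSMG2 and NFE2L1 stood at 0.33 and 0.62 in log2 fold change, and both stayed called. PSMA5 and PSMD3, in which the same array was also the lowest control value, were not among the groups examined.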

How the results depend on the processing

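Counts of subunit probes called higher (24) and lower (11) moved most with normexp background correction and with spike-in scaling. Higher calls numbered 6 with spike-in scaling, 3 with normexp, 13 without background subtraction, 9 with the 2 arrays of a slide averaged, and 15 at an adjusted p of at most 0.01. Lower calls numbered 0, 0 and 3 with spike-in scaling, normexp and averaging, 18 with slide as a block, 17 with the replicate block, 7 without slide 2, and 7 at 0.01. Without control replicate 2 they were 24 and 15. Leaving out 1 slide gave 17 to 21 higher and 7 to 14 lower. No probe was 2-fold under any of these settings, and 3 were past 1.5-fold. Called pathway probes (40) numbered 18, 8 and 24 with spike-in scaling, normexp and averaging. The subunit median moved to 0.25 with spike-in scaling and 0.21 with normexp. PSMB8 minus PSMB5 passed its test only with normexp (-0.45). With averaged arrays, with the replicate block, or without slide 2 or 3, this pair kept too few values to pass whatever their size. PSMB10 minus PSMB7 turned to -0.0087 without control replicate 2, and the cause was not tested. The replicate block added 6 lower calls, on probes of PSMA6 (A_23_P25735, adjusted p = 0.0182), PSMA7 (0.0139), PSMC1 (A_32_P9700, 0.0402), PSMD13 (0.0351), PSME2 (0.0211) and PSME4 (0.0226), and changed no other call among the subunit probes.

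Signs turned only in named probes that were not called: PSMB8 (0.0695 with spike-in scaling, 0.0239 with normexp), PSMB10 (0.0544, 0.0778), PSMB9 (0.19, 0.142, 0.005 with quantile normalization, 0.0204 without background subtraction, 0.0661 without slide 2, 0.0224 without the 2 arrays with the fewest spots above background), PSME1 A_23_P151610 (0.185, 0.231, 0.032 with quantile normalization, 0.0656 without background subtraction), PSME1 A_23_P151614 (-0.0075 with median scaling, -0.021 without slide 1), and PSME2 (0.0672 with normexp). Over all alternatives the named probes kept direction and call in 576 values, lost the call in 66, gained it in 5 and turned in 17. The number of arrays and their pairing in 3 labellings limit the precision.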
